A study of Saccharomyces cerevisiae with 2 samples.

Results

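A set of 283 mRNAs was seen in the CRAC library of Sni445-HTP and not in the library of the untagged control. CRAC is cross-linking and analysis of cDNA. Living cells are irradiated with UV, so that RNA becomes bound to proteins in contact with it, the tagged protein is purified, and the RNA fragments recovered with it are copied into cDNA and sequenced. The mRNAs were chosen by their counts. Each had 10 or more sense reads in the Sni445-HTP library and 0 in the control, and the genes of cytosolic ribosomal proteins (names in RPL or RPS) and 27 further names, most of them of abundant glycolytic enzymes, translation factors and mitochondrial products, had been left out. The files listed 2224 protein-coding features, of which 156 had a name left out, so that the 283 are 13.7% of the remaining 2068. Because the counts of both libraries made the choice, the difference between the libraries is a description of these mRNAs and was not tested.

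The tagged strain was BY4741 (MATa) with SNI445 fused at its own locus to HTP (His6, a TEV protease site and protein A), marked with klURA3. The control was an untagged wild-type strain that has no protein A for the purification. Each strain gave 1 library, so there was no replicate check of any value. Both cultures grew in YNB medium without tryptophan, with glucose, to an optical density of 0.6, were irradiated for 100 seconds, and both cDNA libraries went through 16 PCR cycles.

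Sni445 is a nucleolar protein of ribosome assembly, and snR4 and snR45 are box C/D snoRNAs, small nucleolar RNAs that direct the acetylation of cytidines in 18S rRNA by the enzyme Kre33. An mRNA is made in the nucleoplasm, exported and translated in the cytoplasm, where the most abundant messages of growing yeast are those of ribosomal proteins, glycolytic enzymes, chaperones and amino acid synthesis. Abundant yeast mRNAs use a small set of preferred codons, those read by the most plentiful tRNAs. The codon adaptation index (CAI) scores this usage between 0 and 1 and is widely used as a proxy of expression where, as here, the level of the mRNA in the cells was not measured.

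Preferred codons are shown in capitals in the opening 90 bases of the coding region of 4 of the mRNAs, from the highest to a low CAI, because the codon usage of the 283 is described below. They lie in the R64 genome at chrXII:97396-97485 for SSA2, chrXI:334826-334915 for TMA19 and chrX:622925-623014 for SOD1, all on the minus strand, and at chrI:61316-61405 on the plus strand for ERV46.
SSA2: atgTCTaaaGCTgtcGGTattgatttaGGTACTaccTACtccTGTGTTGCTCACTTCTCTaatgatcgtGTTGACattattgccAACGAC
TMA19: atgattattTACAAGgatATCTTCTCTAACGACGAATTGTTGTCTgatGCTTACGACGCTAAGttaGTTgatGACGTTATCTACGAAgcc
SOD1: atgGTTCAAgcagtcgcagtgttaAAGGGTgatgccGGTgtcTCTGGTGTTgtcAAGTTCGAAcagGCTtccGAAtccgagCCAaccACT
ERV46: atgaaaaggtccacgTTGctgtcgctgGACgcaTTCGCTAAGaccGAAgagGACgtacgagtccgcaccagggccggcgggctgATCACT
A preferred codon is the codon used most often for its amino acid in the 132 annotated genes of cytosolic ribosomal proteins. Of the 30 codons shown, 16 were preferred in SSA2, 22 in TMA19, 15 in SOD1 and 9 in ERV46. Over the whole gene, preferred codons made up 75.2% in SSA2 (CAI 0.833), 74.7% in TMA19 (CAI 0.781), 57.2% in SOD1 (CAI 0.442) and 39.6% in ERV46 (CAI 0.154).

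The Sni445-HTP library held 21867727 mapped reads and the control 12654405. snR4 and snR45 took 79.5% of the sense counts with Sni445-HTP and 1.42% in the control. mRNAs outside the names left out had 17298 sense reads with Sni445-HTP, 0.0641% of its sense counts, and 1250177 reads in the control, 5.44% of its sense counts. The smaller number of reads was spread over more mRNAs, since 1622 of them had a sense read with Sni445-HTP and 429 in the control. The libraries also differed in how many reads stood for each distinct cDNA. Among mRNAs with 10 or more reads and no antisense read, the median was 4.06 reads per cDNA with Sni445-HTP (385 mRNAs) and 40.7 in the control (362 mRNAs). Intervals and floors below cover counting error only, of reads or of cDNAs as stated. PCR copies of a cDNA are not separate molecules, so the intervals on reads are too narrow for the number of cDNAs behind them.

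The 283 mRNAs had 4765 sense reads with Sni445-HTP, against 0 in the control. These reads were 6.14% of all protein-coding sense reads of the Sni445-HTP library (exact Clopper-Pearson 95% interval 5.97 to 6.31), 27.5% of those outside the names left out (26.9 to 28.2) and 0.0177% of all sense counts. They came from 1132 distinct cDNAs. Each mRNA had between 10 and 82 reads, with a median of 13, and between 1 and 31 cDNAs, with a median of 3. The set therefore consisted mostly of messages seen a few times. A single cDNA stood behind 43 of them, 2 cDNAs behind 63 and 3 behind 55, together 56.9% of the set, while 84 had 5 or more and 16 had 10 or more. The count of 10 was met exactly by 51 mRNAs, among them ACS2, AGE2, AIM45, CCA1 and CHS5, with 1 or 2 cDNAs each. Just outside, 55 mRNAs without control reads had 9 reads, among them ADK1, ADP1, ARC1, ARO2 and ATH1, with 1 to 4 cDNAs.

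**Figure D1:**
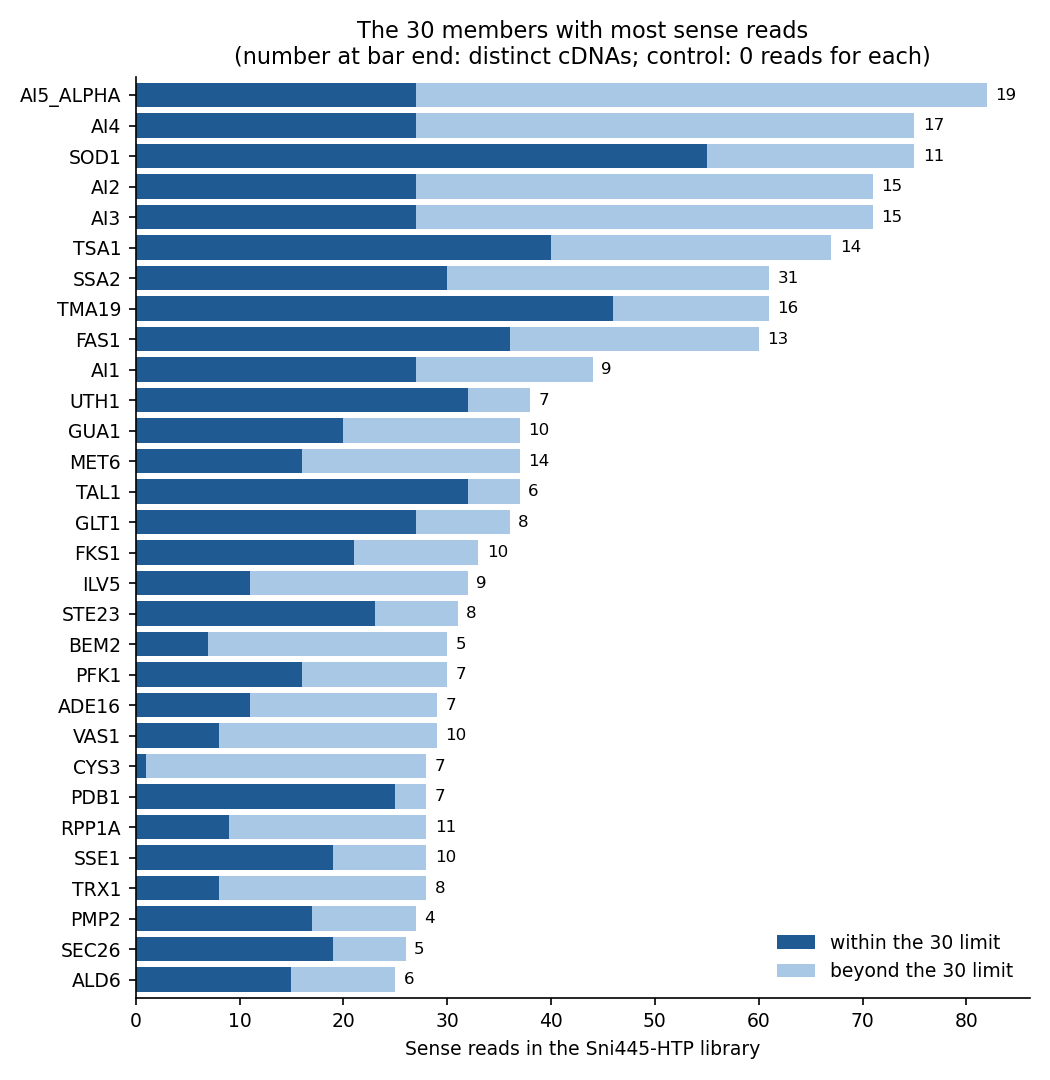
Sense reads in the Sni445-HTP library (horizontal axis) of the 30 mRNAs with most reads, split into reads within the 30 limit on read length (dark) and beyond it (light), with the number of distinct cDNAs at the bar end. SOD1 reaches 75 reads from 11 cDNAs and SSA2 61 reads from 31 cDNAs, and every mRNA shown had 0 control reads. The bars of AI1 to AI5_ALPHA count largely the same reads.

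The highest counts outside mitochondria belonged to small, abundant proteins of redox defence and translation, to a chaperone and to a fatty acid enzyme. SOD1 (YJR104C, chromosome X 622550 to 623014, minus strand), the cytosolic superoxide dismutase, had 75 reads from 11 cDNAs with Sni445-HTP and 0 in the control. TSA1 (YML028W, chromosome XIII 220138 to 220728, plus strand), the main peroxiredoxin, had 67 reads from 14 cDNAs with Sni445-HTP and 0 in the control. TMA19 (YKL056C, chromosome XI 334412 to 334915, minus strand), which associates with ribosomes, had 61 reads from 16 cDNAs with Sni445-HTP and 0 in the control. These are short genes, and per kb of gene they had 161 reads for SOD1, 121 for TMA19 and 113 for TSA1, where the median of the 281 mRNAs with an annotated length was 9.85 reads per kb. SSA2 (YLL024C, chromosome XII 95566 to 97485, minus strand), a cytosolic Hsp70 chaperone, had 61 reads and the most cDNAs of the set, 31. FAS1 (YKL182W, chromosome XI 100671 to 106826, plus strand), the beta subunit of fatty acid synthase, had 60 reads from 13 cDNAs over 6156 nt of gene. Below them stood UTH1, a cell wall and mitochondrial protein, with 38 reads, then TAL1 (transaldolase), GUA1 (GMP synthase) and MET6 (methionine synthase) with 37 each and GLT1 (glutamate synthase) with 36. PMP2, a proteolipid that associates with the plasma membrane H+-ATPase, was highest per kb, 205 reads per kb from 27 reads and 4 cDNAs on a gene of 132 nt, and its relative PMP1, the shortest gene at 123 nt, had 11 reads.

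Several of the highest counts were the same reads counted more than once. AI1, AI2, AI3, AI4 and AI5_ALPHA are reading frames inside the introns of COX1, the mitochondrial gene of a cytochrome c oxidase subunit, and they encode the reverse transcriptases and endonucleases that let these introns splice and move. In R64 all of them begin with COX1 at base 13818 of the mitochondrial genome and end in turn at 16322, 18830, 19996, 21935 and 23167, so each contains the one before it. A read within nested features adds to the count of every one of them. AI1 had 44 reads, AI2 71, AI3 71, AI4 75 and AI5_ALPHA 82 with Sni445-HTP, and 0 each in the control. Every step to a longer frame added 27, 0, 4 and 7 reads, and COX1 itself, a name left out, had 111 reads with Sni445-HTP, against 0 in the control. The number within the 30 limit was 27 for all of these frames. With AI1 to AI5_ALPHA counted once, the set holds 279 loci, 4504 reads and 1076 cDNAs. Some neighbours on the same strand also had matching counts, though they do not overlap in R64. UBP7 and YIL156W-B had 13 sense reads each, and so did COT1 and YOR316C-A, all within the 30 limit. HOM2 had 17 and YDR157W 16, with 14 within the limit for each. Whether such neighbours share reads was not tested, so some of the 279 loci may count the same reads.

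Other counts may be shared with genes outside the set. Reads that match several sites were placed at 1 of them at random, and 14 of the 281 annotated mRNAs had over 10% of their 30-base words elsewhere in the genome too (4.98%). The same held for 23.4% of 107 annotated mRNAs with 10 or more Sni445-HTP reads that also had control reads, and for 6.18% of all 5862 genes outside the names left out. In SSA2 the repeated share was 64.3%, in the glucose transporter HXT6 95.8%, in LYS20 (homocitrate synthase) 47.1%, in the histone H4 gene HHF2 42.4% and in the Ty gag frames YER159C-A and YPR158W-A 100%. SSA2 and SSA1 share an unbroken run of 383 bases. The opening 90 bases of the run are shown because a read from them fits both genes, at chrXII:96994-97083 in SSA2 and chrI:140940-141029 in SSA1, on the minus strand of both.
SSA2 and SSA1: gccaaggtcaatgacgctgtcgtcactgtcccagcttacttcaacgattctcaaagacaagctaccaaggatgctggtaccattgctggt
SSA1 had 109 reads with Sni445-HTP, against 2897 in the control, where SSA2 had 61 with Sni445-HTP and 0 in the control. Which reads of SSA2 came from the shared run was not tested, since the counts give no positions.

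The set was rich in genes with the codon usage of highly expressed genes, a property that the choice of members did not use. The median CAI was 0.279 for the 276 nuclear mRNAs of the set with an annotation, against 0.193 for the 5849 nuclear genes outside the names left out. Of the 276, 120 (43.5%) lay in the highest decile of CAI over those genes, above 0.306, and 24 (8.70%) had a CAI of 0.167 or less, the limit of the lowest 25% of those genes. The 107 mRNAs with reads in both libraries had a median of 0.387 and 58.9% in the highest decile. The 118 annotated mRNAs with 10 or more control reads and none with Sni445-HTP had a median of 0.198 and 12.7% in the highest decile, close to the average gene. Seen from the deciles, 20.5% of the genes in the highest decile belonged to the set, 8.03% of those in the decile below it and 1.20% of those in the lowest. For the mRNAs seen only in the control, these shares were 2.56%, 3.42% and 2.39%. No test was made, since genes are not replicates and each strain had 1 library.

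The CAI also followed the read count within genes that had no control read. The highest decile held 4.78% of the 4125 genes with no read in either library, 12.1% of the 660 with 1 to 4 Sni445-HTP reads, 19.7% of the 381 with 5 to 9, 36.4% of the 225 with 10 to 19 and 74.5% of the 51 with 20 or more. Gene length moved with these bands as well, with medians of 1132, 1326, 1500, 1392 and 1689 nt, and the part of length was not tested. In the set, the highest decile held 24.8% of the 105 mRNAs with 1 or 2 cDNAs and 55.0% of the 171 with 3 or more. Members with low CAI and few cDNAs included ERV46, a receptor of vesicles between the endoplasmic reticulum and the Golgi, with 15 reads from 1 cDNA, and YOR316C-A with 13 reads from 2 cDNAs and a CAI of 0.103. COT1, beside YOR316C-A on the same strand, also had 13 reads, and whether these are the same reads was not tested.

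**Figure D2:**
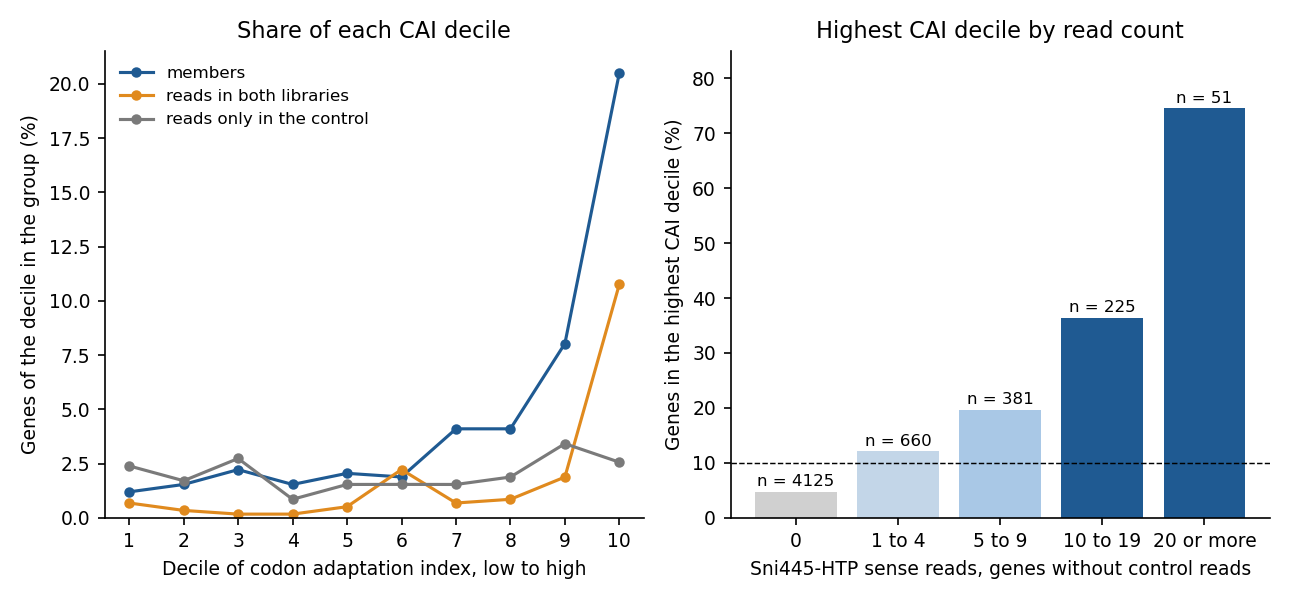
Left, the percentage of genes in each decile of the codon adaptation index (CAI) that belonged to the 283 mRNAs (blue), had 10 or more Sni445-HTP reads and also control reads (orange), or had 10 or more control reads and none with Sni445-HTP (grey). The blue line reaches 20.5% in the highest decile while the grey line stays between 0.855% and 3.42%. Right, the percentage of genes without control reads that lay in the highest decile, by Sni445-HTP read count, from 4.78% at 0 reads to 74.5% at 20 or more, with the dashed line at 10%.

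Genes of aminoacyl-tRNA synthetases, which charge tRNAs with amino acids, had the largest share in the set among the lists of 20 or more genes. Of 21 such genes, 10 were members (47.6%), where 4.79% of the 5862 genes outside the names left out were. They were VAS1 (valine) with 29 reads from 10 cDNAs, GUS1 (glutamate) with 22, KRS1 (lysine) with 21, the prolyl-tRNA synthetase YHR020W with 18, GRS1 (glycine) with 17, ALA1 (alanine) with 15, SES1 (serine) with 13, MES1 (methionine) with 12, ILS1 (isoleucine) with 11 and FRS1 (phenylalanine) with 10. All of them had 0 control reads by the choice of the set, and no other gene of the list reached 10 reads with Sni445-HTP. All 21 genes of this list lay in the highest decile of CAI, where 20.5% of the genes were members.

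The lists together held 144 of the 283 mRNAs, and the other 139 were in no list. The shares below stand beside 4.79% over all genes outside the names left out and 20.5% in the highest decile of CAI. The lists differed in how many genes they had in that decile. Examples are 43 of 74 in central carbon metabolism, 25 of 49 chaperones and 1 of 36 in the proteasome list. Of 95 genes of amino acid biosynthesis, 21 were members (22.1%), with 407 reads. They were led by MET6 with 37 reads, GLT1 with 36, ILV5 (branched-chain amino acids) with 32 and CYS3 (cysteine) with 28, and the list also gave 9 mRNAs with reads in both libraries. GCN4, the transcriptional activator of these genes, had 13 reads from 5 cDNAs. Central carbon metabolism gave 12 members among 74 genes, led by TAL1 with 37 reads and PFK1 (phosphofructokinase) with 30, and another 12 of the 74 had reads in both libraries. Purine and pyrimidine synthesis gave 7 of 37, with GUA1 at 37 reads and ADE16 at 29. In lipid and sterol synthesis 5 of 43 were members, FAS1 with 60 reads and 4 enzymes of sterol synthesis, ERG24, ERG10, ERG25 and ERG13, with 11 to 17. The shares were 16.2% for central carbon metabolism, 18.9% for purine and pyrimidine synthesis and 11.6% for lipid and sterol synthesis.

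Chaperones gave 10 members among 49 genes, with SSA2 at 61 reads, SSE1 (an Hsp110) at 28, SSZ1 (of the ribosome-associated complex) at 25, CCT5 (of the chaperonin TRiC) at 23 and HSP104 (the disaggregase) at 22. ZUO1, the partner of SSZ1 at the ribosome, had 11. In the antioxidant list 4 of 22 were members, SOD1 with 75 reads, TSA1 with 67, the thioredoxin TRX1 with 28 and the thioredoxin reductase TRR1 with 13. Cell wall genes gave 10 of 56, led by UTH1 with 38 and FKS1 (a glucan synthase) with 33 reads, and the secretory pathway gave 13 of 67, led by the COPI coat genes SEC26 with 26 and SEC21 with 21 reads. Plasma membrane transporters gave 9 of 57, of 10 to 18 reads, with the amino acid permease BAP2 at 18. The cytoskeleton list gave 7 of 32, with PIL1, a core protein of eisosomes, at 23 reads, and histones and chromatin gave 5 of 30, with the H2A gene HTA2 at 17. The shares were 20.4% for chaperones, 18.2% for the antioxidant list, 17.9% for the cell wall and 19.4% for the secretory pathway. They were 15.8% for transporters, 21.9% for the cytoskeleton and 16.7% for histones and chromatin, against 4.79% over all genes.

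In the list of mRNA binding and decay 9 of 45 were members, with PUB1 at 20 reads, PAB1 (poly(A)-binding protein) at 19, and CDC33 (eIF4E) and CDC39 (the Not1 scaffold) at 18. Translation initiation gave 3 of 28, RPG1 (an eIF3 subunit) with 20 reads and TIF11 and TIF35 with 11 each, and the proteasome list gave 5 of 36, of 14 to 16 reads, with the ubiquitin-activating enzyme UBA1 at 16. Ribosome assembly factors, the class to which Sni445 itself belongs, gave 7 of 135 (5.19%), close to the share over all genes, with 10 to 14 reads each, led by NSA2 with 14. RNA polymerase subunits gave 2 of 31, RPA43 with 16 and RPB2 with 14 reads, and nuclear genes of the respiratory chain 2 of 43, COX5B with 23 and COR1 with 11.

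**Figure D3:**
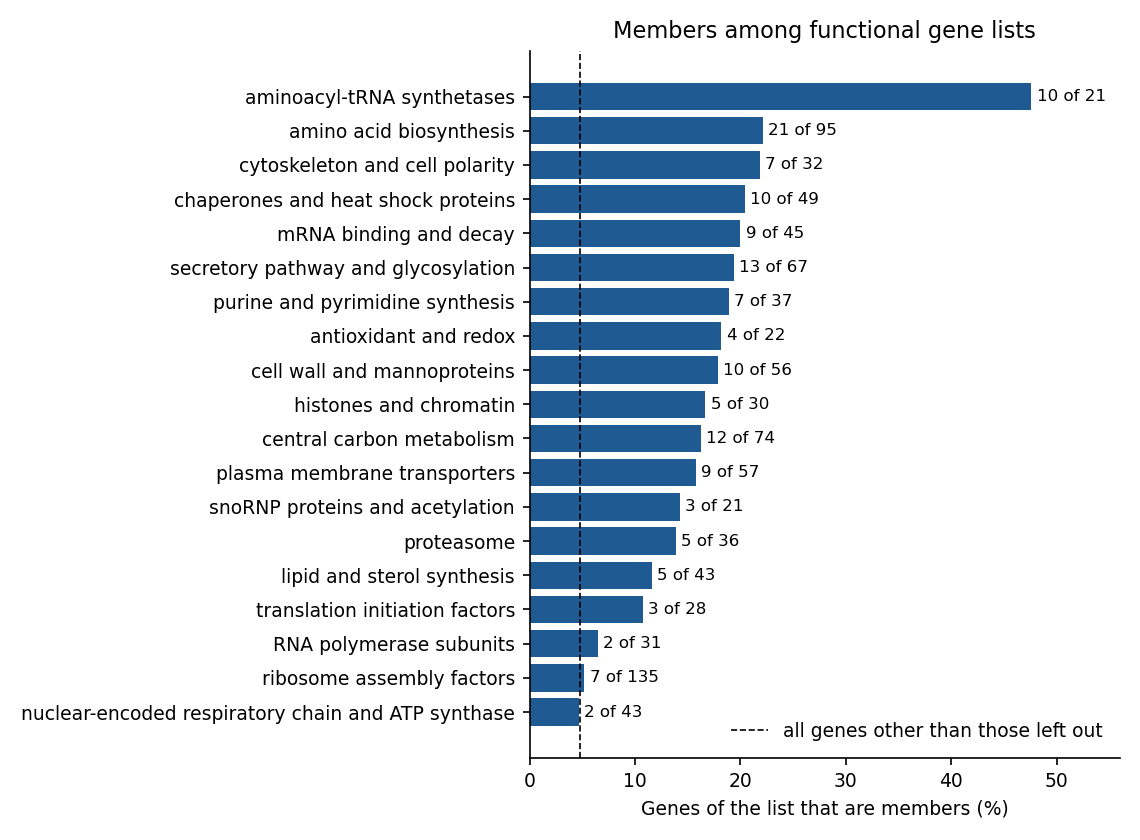
Percentage of the genes of each functional list that belonged to the 283 mRNAs, with the numbers at the bar end and the share over all genes outside the names left out, 4.79%, as the dashed line. Lists of fewer than 20 genes are not drawn. Aminoacyl-tRNA synthetases stand at 47.6%, amino acid biosynthesis at 22.1% and ribosome assembly factors at 5.19%.

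Messages of proteins that sit on snoRNAs were looked at by name, because Sni445 co-purifies with such particles. NOP58 (YOR310C, chromosome XV 896825 to 898360, minus strand), a core protein of box C/D snoRNPs, had 21 reads from 4 cDNAs with Sni445-HTP and 0 in the control. NOP56, its partner in the same particle, had 14 reads from 2 cDNAs, and CBF5, the pseudouridine synthase of box H/ACA snoRNPs, had 20 reads from 6 cDNAs, both with 0 in the control. NOP1, the methyltransferase of box C/D particles, had 13 reads with Sni445-HTP, against 641 in the control and is therefore not in the set. SNU13, another core protein of box C/D particles, had 0 reads in both libraries, and KRE33, the acetyltransferase, had 2 reads from 1 cDNA with Sni445-HTP and 0 in the control. Of the 21 genes of this list, 3 were members (14.3%), and these 3 lay in the highest decile of CAI, with 0.469 for NOP58, 0.454 for NOP56 and 0.455 for CBF5. That decile held 7 of the 21 genes. Members made up 20.5% of all genes in it and 4.79% of all genes outside the names left out.

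The neighbours of the snR4 and snR45 genes were examined because reads that run past a snoRNA could be counted on them. ASN1 (asparagine synthetase, chromosome XVI 822620 to 824338, plus strand), next to snR45, was a member with 21 reads from 6 cDNAs, 6 of the reads within the 30 limit. NOC4 on the other side of snR45, and PMD1 beside snR4, had no read in either library, and RPS26B, a name left out, had 24 reads with Sni445-HTP, against 646 in the control. None of the 281 annotated mRNAs overlapped a gene of a snoRNA, tRNA, rRNA or other structural RNA in R64. Such overlaps are rare, with 17 of all 5862 genes outside the names left out (0.290%), so their absence does not set the 281 apart. Of the 107 with reads in both libraries, 7 had one. A structural RNA gene lay within 500 nt on the same strand of 6 of them, CLU1, NUP2, SCW11, STE6, UBA1 and VPS53 (2.14%), against 2.80% of all genes.

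Sequence shared with the acetylation guides was measured as the longest run of identical bases. The run shared with snR4 (186 nt) had a median of 9 bases in the set and of 9 over all genes, with a maximum of 12 in the set and 14 over all. For snR45 (172 nt) the medians were again 9 and 9, and the maximum was 15 in the set and over all genes. The run of 15 lies in ALA1, at chrXV:948230-948244 on the minus strand, and is shown as the closest match in the set.
ALA1: agaatgacaaggacg
ALA1 had 15 reads from 4 cDNAs, all within the 30 limit. A shared run of this length is a description of the sequence and says nothing of where the reads lie.

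The number of copies behind each cDNA varied across the set. The median was 4.67 reads per cDNA over the 270 mRNAs without antisense reads, against 3.26 for the 115 with reads in both libraries. In the control, the mRNAs of that second class had a median of 37.6 reads per cDNA and the mRNAs seen only in the control 46.4. The highest numbers in the set were single cDNAs read many times. ARG5_6, which encodes enzymes of arginine synthesis, had 21 reads of 1 cDNA, AMD1 (AMP deaminase), ERV46 and FLC3 15 each and ARF2 (a small GTPase) 14. Few reads per cDNA were found for TKL1 (transketolase), with 1.86 from 13 reads and 7 cDNAs, and for SSA2, with 1.97. A control cDNA thus typically gave more reads than the minimum of 10 asked of the Sni445-HTP library.

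**Figure D4:**
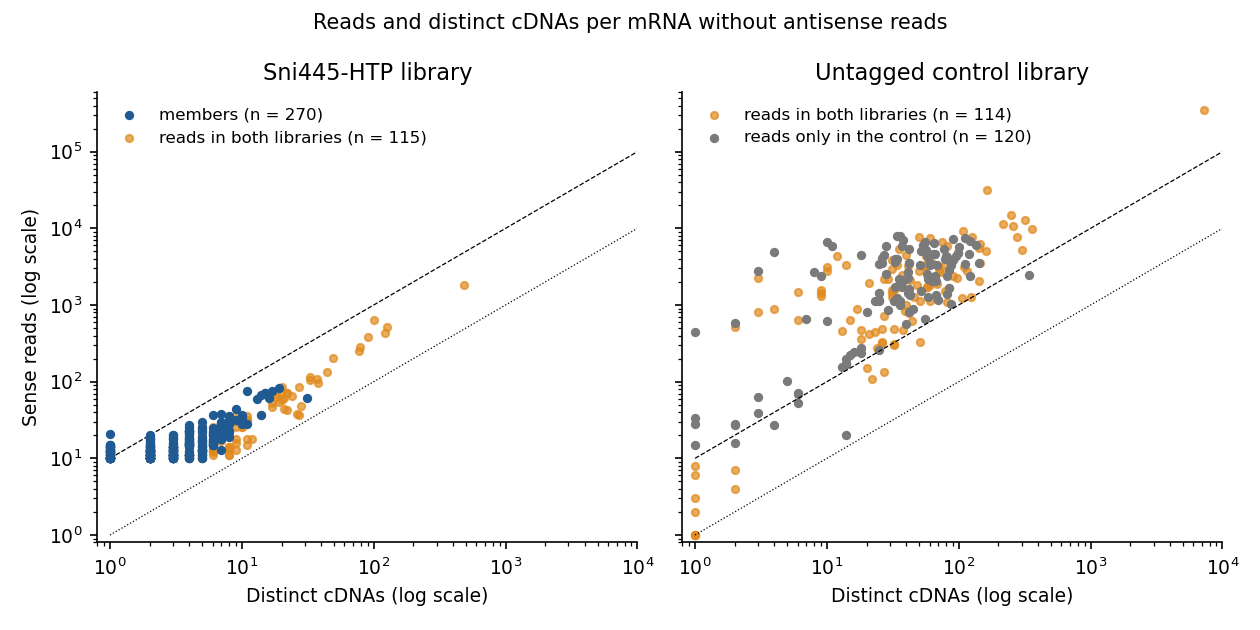
Sense reads (vertical, log scale) against distinct cDNAs (horizontal, log scale) for mRNAs without antisense reads, with the Sni445-HTP library on the left and the untagged control on the right. Dotted and dashed lines mark 1 and 10 reads per cDNA. The 270 mRNAs of the set (blue) lie near a median of 4.67 reads per cDNA, and most mRNAs of the control lie above the dashed line.

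A control count of 0 gives only a lower bound on the ratio of shares. With the count set to a floor of 3 reads per mRNA, the share of sense counts was at least 2.84 to 23.3 times as high with Sni445-HTP as in the control, with a median bound of 3.69. The floor of 3 reads is smaller than the 40.7 reads that a cDNA typically had in the control, so these bounds hold for read counting only. In distinct cDNAs, with a floor of 3 cDNAs, the bound ran between 0.831 and 25.8 with a median of 2.49, and it was below 1 for the 43 mRNAs with a single cDNA, for which no higher share is shown. These bounds move with the scale. With protein-coding reads as the total, the median bound was 149.6, and with median-ratio size factors, taken over 1044 features of all classes with reads in both libraries, it was 149.6 as well. The ratio is of shares in a library and not of amounts of RNA.

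mRNAs seen in only a single library were found in both. Of the 400 mRNAs with 10 or more Sni445-HTP reads outside the names left out, 283 (70.8%) had no control read. Of the 366 mRNAs with 10 or more control reads, 121 (33.1%) had no Sni445-HTP read, 5.85% of the 2068. These 121 had 319740 control reads, with a median of 2223 each. Applied to every class of feature outside those names, the rule held for 429 of 5602 features (7.66%), among them 107 intergenic regions, 24 of 76 snoRNAs and 3 of 284 tRNAs. A few reads decided the edge of the set. CCW14, a cell wall mannoprotein with 18 reads, PFK27 with 14 and TOS1 with 26 were outside it through a single control read, SED1 with 15 through 2 and TRP5 with 14 through 3, each from 1 control cDNA.

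Short reads were compared between the 283 mRNAs and those seen in both libraries. With Sni445-HTP, 62.5% of the reads on the set (exact 95% interval 61.1 to 63.9) were within the 30 limit on read length, against 51.7% (50.6 to 52.8) for the mRNAs with reads in both libraries. In distinct cDNAs the shares were 57.3% (54.4 to 60.2) and 47.2% (45.1 to 49.3). The second class had 117 protein-coding features, of which 107 had an annotation, and 7 of these overlapped a gene of a structural RNA. Whether their reads came from such RNAs was not tested. The highest feature of this class, YGL088W, had 1801 of its 7747 reads, and without it the class had 57.1% of reads and 52.2% of cDNAs within the limit. Among mRNAs with 50 or more reads, the share of reads was 50.6% (46.6 to 54.6) for the 9 of the set. It was 49.8% (48.6 to 51.1) for the 27 seen in both libraries, YGL088W included. Of the 9, 4 were COX1 frames that count largely the same reads. Without these frames the other 5 had 63.9% (58.4 to 69.1), so the closeness of the shares rested on the frames. The intervals treat reads as independent. The share without the frames and the comparisons with other forms of the second class were chosen after seeing the data. Single mRNAs differed widely. All reads were within the limit for 102 mRNAs and none for 35, and most of these had few cDNAs, since 6 of the 84 with 5 or more cDNAs had all reads within the limit and 0 of the 84 had none. Among those with 50 or more reads, TMA19 had 75.4% within the limit, SOD1 73.3%, FAS1 60.0%, TSA1 59.7% and SSA2 49.2%, and the COX1 frames had the lowest shares, from 32.9% for AI5_ALPHA to 38.0% for AI2 and AI3.

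The genes of the set were longer than average. The median length was 1476 nt, against 1228.5 nt for all genes outside the names left out and 1341 nt for the mRNAs with reads in both libraries. The longest outside the COX1 frames were BEM2 (a GTPase-activating protein of cell polarity, 6504 nt, 30 reads), GLT1 (6438 nt) and CDC39 (6327 nt, 18 reads), and the shortest after PMP1 and PMP2 were YOR316C-A (210 nt), ACB1 (264 nt) and SBH2 (267 nt). An intron was annotated in 12 of the 281 (4.27%), 4 of them COX1 frames, against 4.04% of all genes and 14.0% of those with reads in both libraries. RPP1A, a stalk protein of the large ribosomal subunit whose name the rule did not catch, had 28 reads from 11 cDNAs, and RPP2B 13 from 5. They are named here after their values were seen.

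Antisense reads were rare. In the Sni445-HTP library 13 of the 283 mRNAs had any, 198 reads in all, and 3 had more antisense than sense reads. UBP7 (a ubiquitin protease, chromosome IX 48091 to 51306, plus strand) had 125 antisense against 13 sense reads, with 5 antisense reads in the control. RPB2 (the second subunit of RNA polymerase II) had 16 antisense reads, YJR015W 11 and RSC9 8, with 0 each in the control. YPL009C had 16 antisense reads with Sni445-HTP, against 2634 in the control. The cDNA numbers of these mRNAs are not split by direction, so the 16 cDNAs of UBP7 include those of its antisense reads.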

How the data were processed

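Of each library, the deposited counts give, per feature, reads in sense, reads in antisense and distinct cDNAs, under read length limits of 1000 and 30. They are raw counts without normalization. The authors checked reads with FastQC 0.12.1, aligned them with Novoalign 3.09.00 to the EF2.59 genome, which put a multimapping read at a random site, and then counted with the pyCRAC toolkit (file headers: Counters 1.4.4). How cDNAs were collapsed is not given in the sources used here. Every listed feature had at least 1 read in sense or antisense, so an mRNA not listed was taken as 0. The 1000 limit was used unless stated.

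Computed here, in Python 3.11.15 with pandas 2.3.3, numpy 2.4.6 and scipy 1.17.1, were sums, shares with exact Clopper-Pearson 95% intervals, medians, and ratios of shares with a floor of 3 counts. Scaling by TMM used edgeR 4.0.16 in R 4.3.3, and plots matplotlib 3.10.9. The code of the rule was run on simulated counts in which only the planted members could meet the rule. That run checks the code and not how the rule behaves on sparse counts. With 1 library per strain and members chosen on these counts, no test was made. Lengths, codons and sequences came from R64 (RefSeq) by gene name, which 281 of the 283 names matched (not YBR191W-A and YER097W). The build of the counts differs, so no coordinate of the files was used. The CAI used codon weights from 132 ribosomal protein genes and left out mitochondrial genes.

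The members, the 21 gene lists and the genes named were chosen with earlier results of these data known. Named were the 15 mRNAs with most sense reads, the 10 with most cDNAs, the 5 with most antisense reads and with most reads per cDNA, the 5 with the largest and smallest shares within the 30 limit among those with 50 or more reads, the 5 longest and the 5 shortest genes, the highest member of each list, the snoRNP proteins, neighbours of snR4 and snR45, and mRNAs at the threshold. Others are named as examples, after their values were seen. The list of hosts of intronic snoRNAs, of 2 genes outside the names left out, gave 0 members.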

Additional observations from a re-analysis of the deposited data

Results flagged for a closer look

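The choice of the set did not use antisense reads, and 4 of its mRNAs had 10 or more of them with Sni445-HTP. These 4 were picked by that count, which favours values above the control, so the comparison is a description. The antisense count was above the control in 3 of the 4. UBP7 had 125 antisense reads with Sni445-HTP, against 5 in the control, and was above the control per mapped read too. All 125 were within the 30 limit, and an intergenic feature, INT_0_2216, had the same numbers with the directions exchanged, 125 sense and 13 antisense reads and 16 cDNAs. RPB2 had 16 antisense reads with Sni445-HTP, against 0 in the control, again matched by an intergenic feature, INT_0_8042, with 16 sense and 14 antisense reads. YJR015W had 11 antisense reads with Sni445-HTP, against 0 in the control. RPB2 and YJR015W each had 4 cDNAs, sense and antisense together. The cause of the antisense reads was not tested.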

How the results depend on the processing

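Of 24 alternatives, 8 left the value within 1.5 times for a count, or within its 95% interval for a share or a median. The set of 283 became 672 mRNAs with a minimum of 5 reads, 56 with 20, 9 with 50, and 186 with the 30 limit, of which 176 were in the set. With 3 or more distinct cDNAs and no control cDNA there were 322, and 174 of the 283 were among them. The share of protein-coding sense reads, 6.14%, was 4.68% in distinct cDNAs and 27.5% over protein-coding features outside the names left out. The median bound on the ratio of shares, 3.69, was 11.1 with a floor of 1 and 2.21 with a floor of 5, 2.49 in distinct cDNAs, 20.1 for mRNAs with 50 or more reads, 149.6 over protein-coding reads, 149.6 with median-ratio factors and 129.1 with TMM factors. The share within the 30 limit, 62.5%, was 57.3% in cDNAs and 50.6% for mRNAs with 50 or more reads, a subset with 4 COX1 frames. Without these frames, the other 5 of that subset had 63.9%. The median length, 1476 nt, was 1747.5 nt with a minimum of 20 reads. Median reads per cDNA stayed between 4.67 and 5. The share in the highest CAI decile, 43.5%, under alternatives chosen after seeing the data, was 55.0% with 3 or more cDNAs, 24.8% with fewer, 41.2% without repeated sequence and 40.4% for genes of 900 nt or longer.

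No paired analysis was possible because each strain has 1 library. For the same reason no library could be left out. Depth limits the set at its lower end, where 43 mRNAs rest on 1 cDNA and 55 mRNAs missed the minimum by 1 read.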
